A study of Mus musculus with 6 samples.

Results

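The genes described here encode the enzymes that build sterols and fatty acids from acetyl-CoA, together with proteins that switch sterol synthesis on and off. They are a list of 32 genes, found by their symbols on the array of a study of mouse aorta, older symbols included (Sc4mol for Msmo1). Of these, 31 had a probe, with 39 probes in all out of 39362, and Mvk was not analysed here. The list falls into 18 sterol steps (17 with a probe), 5 sterol regulators and 9 fatty acid steps.

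The study set 3 aorta samples of ApoE KO mice against 3 of wild type (WT) C57BL6 mice. ApoE KO mice lack apolipoprotein E, a ligand for the clearance of lipoprotein remnants. According to the protocol, the mice of all 6 samples were on a high fat diet for 16 weeks from an age of 8 weeks. The labels report lesions of atherosclerosis in the knockout aortas alone. The labels give ages of 32 weeks for the ApoE KO mice and 24 weeks for the WT mice. They write the background of the Cy5 RNA as C57BL6 db/+ for all 6 samples. The name db/+ is used for mice with 1 mutant copy of the leptin receptor gene. The Cy5 source names of both groups read db/+ at 9 weeks, and those of WT replicates 2 and 3 end in the same number. The log2 ratios of these replicates had r = -0.13 over all probes, and the other WT pairs had 0.034 and -0.126. With all WT pairs this low, r cannot tell whether replicates 2 and 3 share a source. Headings of 3 arrays that name no group also speak of vehicle and of 24 weeks, so genotype, age, length of diet and vehicle cannot be told apart. ApoE KO mice lack the protein in every tissue, and the sources do not say whether aortas were pooled.

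Each array compared the Cy5-labelled RNA of 1 aorta sample with a common Cy3-labelled reference. A value is the log2 ratio of the sample's own RNA over that reference, and 0 means an equal signal. Whether a sample held 1 aorta or a pool is not stated, so the SE given below is between samples. Differences are ApoE KO minus WT means of these log2 ratios, given with the standard error (SE) of the limma fit, and a gene was called when its p, adjusted by the Benjamini-Hochberg method over 35027 features, was under 0.05. Each array measured 39480 to 39551 probes, and the precision is limited by having 3 arrays per group. The deposited intensities were rounded to steps of 0.01, so for most dim probes the difference is also given in steps, or the size of 1 step. The level of a probe, in the authors' arbitrary intensity units, was at least 0.5 for 21 of the 31 genes. Apoe itself checked the labels: its log2 ratios were -1.31, -1.21 and -1.31 in ApoE KO aortas, against 0.00, -0.32 and 0.12 in WT aortas (difference -1.21, SE 0.13, adjusted p = 0.00649).

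Animal cells make cholesterol in the endoplasmic reticulum by the mevalonate pathway, in which acetyl-CoA is built into isoprenoid units, these are joined into squalene, and squalene is closed into a ring and trimmed to cholesterol. When membrane cholesterol is low, the transcription factor SREBP-2 is carried by SCAP to the Golgi apparatus and cut free to enter the nucleus, and when cholesterol is high, INSIG proteins hold SCAP back. Fatty acid synthesis starts from the same acetyl-CoA, released from citrate, and in macrophages of the arterial wall both routes are known to respond to cholesterol loading, through SREBP and liver X receptors.

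Of the 17 sterol steps with a probe 6 fell and 2 rose, and the fatty acid genes went both ways. In ApoE KO aortas Srebf2, Sqle, Fdft1, Fdps, Lss, Tm7sf2, Cyp51 and Fads1 fell, whereas Scd1, Scd2, Acly, Dhcr7 and Ebp rose. That made 13 of the 31 genes called, 5 higher and 8 lower, where 14.7% of all features were called (6.73% higher and 8% lower). The ApoE KO and WT values did not overlap for 22 of the 31, against 29.3% of all features. Bright features were called far more often, so the count is better read among probes with a level of at least 0.5, tested alone: there 11 of 21 genes were called, 4 higher and 7 lower, against 43.4% of the 9034 features (19% higher and 24.5% lower), and 15 of 21 did not overlap, against 59.2%. At that brightness the share called was near the background. The median difference over the 31 genes was -0.10, beside -0.02 over all features and -0.05 over the bright ones.

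Markers of the aorta's cell types moved too. Of 8 smooth muscle markers, 6 fell (median difference -0.65), and their summed level was 387 to 442 intensity units in ApoE KO aortas and 643 to 691 in WT aortas. The brightest, Acta2, Tagln and Cnn1, differed by -0.68, -0.63 and -0.73, while Myocd (-0.42, 5.4 steps) and Des (0.00, 0 steps), both dim, were not called. Of 10 macrophage markers, 9 rose (median 1.94), and their summed level was 229 to 273 in ApoE KO aortas and 48.1 to 61.8 in WT aortas, with Ctss at 3.21, Mpeg1 at 3.00 and C1qa at 1.91. In bulk samples, fewer cells of a type and less RNA per cell cannot be told apart. The falls of Sqle, Srebf2, Fdft1 and Fdps stood beside a fall of the smooth muscle markers, and the rises of Scd1, Scd2 and Acly beside a rise of the macrophage markers. The part of cell makeup in the differences of the synthesis genes was not tested.

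Some limits touch these calls. After quantile normalization between arrays Sqle and Scd1 remained called among the 13 (adjusted p = 0.033 and 0.0466), and the other 11 had adjusted p values from 0.109 to 0.424, each with its direction kept. The differences of 4 of them shrank by over 1.5 times, to 0.26 for Scd2, 0.24 for Acly, -0.27 for Fdft1 and -0.11 for Fads1. Quantile normalization gives all arrays the same spread. Before it, the SD of the log2 ratios was 0.24 to 0.264 on the ApoE KO arrays and 0.075 to 0.135 on the WT arrays. The part of this unlike spread in the lost calls was not tested. In the 6 fits that each left out 1 array, Sqle, Tm7sf2, Srebf2, Scd1, Scd2 and Fads1 kept their calls throughout, while the other 7 lost theirs in at least 1: without ApoE KO replicate 1 the genes lost were Fdps, Fdft1, Cyp51, Ebp, Dhcr7 and Acly (adjusted p up to 0.147), without replicate 2 Cyp51, Ebp, Dhcr7 and Acly (up to 0.13), and without replicate 3 Fdps, Fdft1, Lss and Dhcr7 (up to 0.0829). Without WT replicate 1 they were Lss, Cyp51, Ebp, Dhcr7 and Acly (up to 0.127), without replicate 2 Fdps, Fdft1, Lss, Cyp51, Ebp, Dhcr7 and Acly (up to 0.114), and without replicate 3 Fdft1 and Cyp51 (up to 0.096). Without 1 array the number of genes called higher was 2 to 5 and the number called lower 4 to 7.

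**Figure D1:**
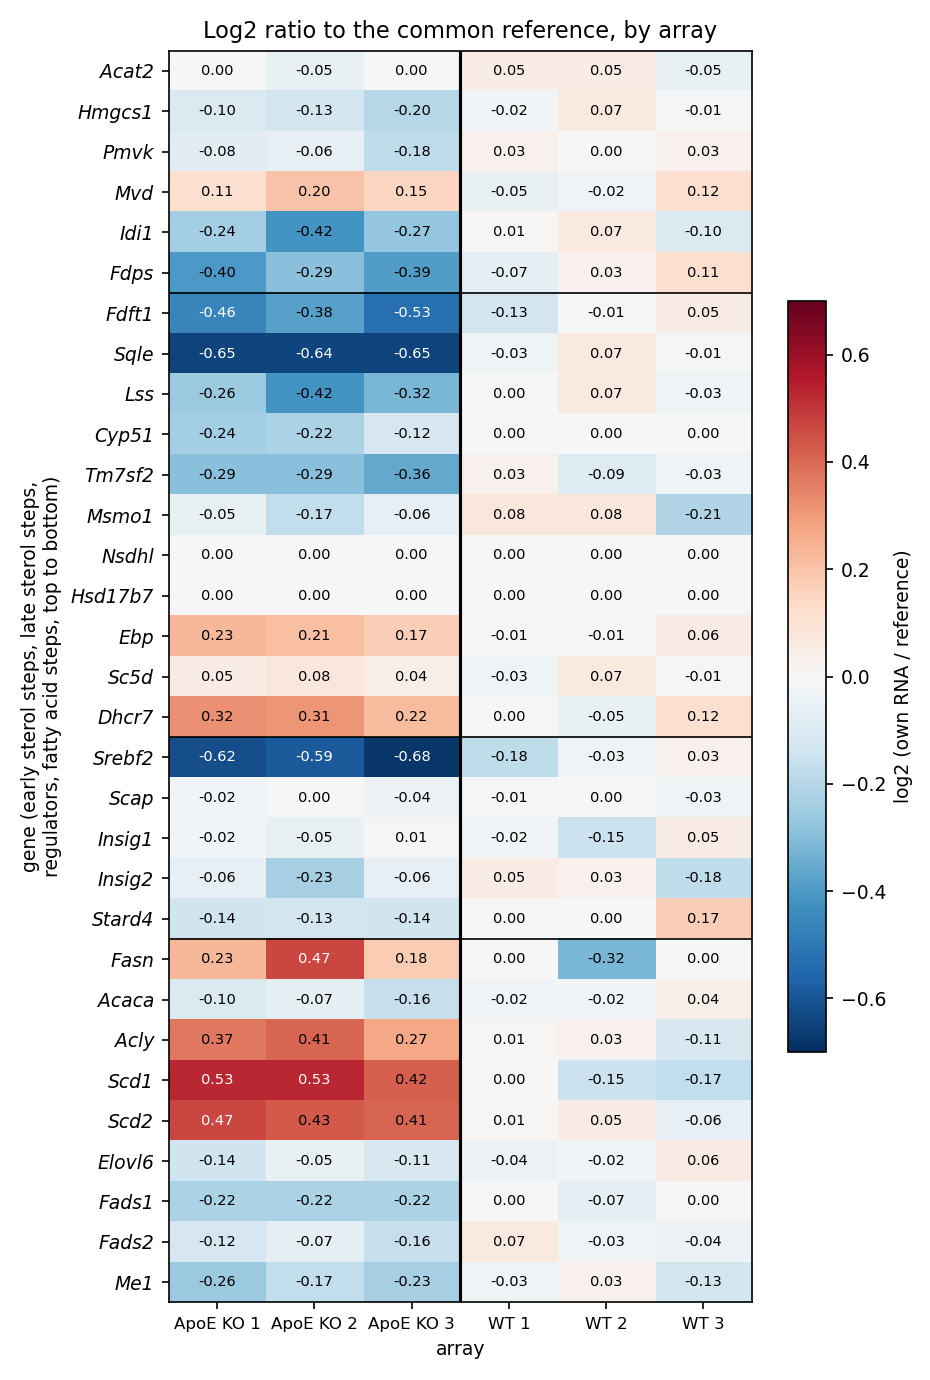
Log2 ratio of the aorta's own RNA to the reference for each of the 31 genes with a probe (rows, grouped by role) on each array (columns, ApoE KO on the left and WT on the right), shown as colour. Sqle lies between -0.65 and -0.64 on the ApoE KO arrays and between -0.03 and 0.07 on the WT arrays, and Scd1, Scd2 and Acly have positive values on all 3 ApoE KO arrays.

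Of the 5 regulators, Srebf2 fell and 4 were not called, where 14.7% of all features were called. Among the bright features tested alone, 1 of 4 regulators was called, again Srebf2, where 43.4% of features were called. Srebf2, which encodes SREBP-2, had log2 ratios of -0.62, -0.59 and -0.68 in ApoE KO aortas, against -0.18, -0.03 and 0.03 in WT aortas. All 3 knockout values lay well below the lowest WT value, and the transcript was 1.49-fold lower in ApoE KO aortas (difference -0.57, SE 0.064, adjusted p = 0.00749). Scap, the escort of SREBP, stood at -0.02, 0.00 and -0.04 in ApoE KO aortas and at -0.01, 0.00 and -0.03 in WT aortas. These values overlapped and were nearly equal (difference 0.00, SE 0.014, adjusted p = 0.995), although Scap came out higher after quantile normalization (difference 0.068, adjusted p = 0.0452).

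The INSIG genes, whose products retain SCAP in the endoplasmic reticulum, also overlapped between groups. Insig1, itself a well-known target of SREBP, had -0.02, -0.05 and 0.01 in ApoE KO aortas and -0.02, -0.15 and 0.05 in WT aortas (difference 0.02, SE 0.057, adjusted p = 0.883). Insig2 had -0.06, -0.23 and -0.06 in ApoE KO aortas and 0.05, 0.03 and -0.18 in WT aortas (difference -0.08, SE 0.087, adjusted p = 0.555). Stard4, a carrier of cholesterol between membranes, had -0.14, -0.13 and -0.14 in ApoE KO aortas, against 0.00, 0.00 and 0.17 in WT aortas. Its groups did not overlap, but its probe was dim, the difference of -0.19 (SE 0.053, adjusted p = 0.0916) amounts to 1.3 steps of the rounded intensity, and it was called once WT replicate 3 was left out (adjusted p = 0.00381).

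SREBP acts through sterol regulatory elements in promoters, which commonly lie near boxes bound by the factor NF-Y. The promoters of 6 genes are shown because they pair the regulator with sterol steps that fell, with 1 that rose, and with Hmgcs1, the textbook target that was not called. Each is the stretch of 250 bases before the RefSeq start in build GRCm38.p6, written 5′ to 3′ on the gene's strand: Srebf2 at chr15:82147019-82147268 (plus strand), Lss at chr10:76531355-76531604 (plus), Cyp51 at chr5:4104698-4104947 (minus), Tm7sf2 at chr19:6067851-6068100 (minus), Ebp at chrX:8193513-8193762 (minus) and Hmgcs1 at chr13:119690101-119690350 (plus). The Lss stretch is an exception: the annotated start of the gene lies 39 bases before its last base, so its end lies within the gene. Capitals mark matches on either strand to the core of the sterol element, TCACNCCA (in Hmgcs1 the longer TCACNCCAC), and to the NF-Y box, CCAAT, which reads ATTGG when it lies on the opposite strand.
Srebf2: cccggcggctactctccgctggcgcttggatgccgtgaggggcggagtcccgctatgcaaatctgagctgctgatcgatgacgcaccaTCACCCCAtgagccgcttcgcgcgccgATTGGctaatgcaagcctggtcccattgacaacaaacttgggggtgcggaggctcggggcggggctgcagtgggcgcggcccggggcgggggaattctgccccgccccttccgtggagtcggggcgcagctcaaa
Lss: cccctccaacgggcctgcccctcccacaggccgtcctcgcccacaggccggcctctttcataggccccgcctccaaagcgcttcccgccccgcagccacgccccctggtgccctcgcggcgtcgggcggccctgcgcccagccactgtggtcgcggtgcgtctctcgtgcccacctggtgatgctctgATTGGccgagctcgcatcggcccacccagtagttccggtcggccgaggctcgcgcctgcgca
Cyp51: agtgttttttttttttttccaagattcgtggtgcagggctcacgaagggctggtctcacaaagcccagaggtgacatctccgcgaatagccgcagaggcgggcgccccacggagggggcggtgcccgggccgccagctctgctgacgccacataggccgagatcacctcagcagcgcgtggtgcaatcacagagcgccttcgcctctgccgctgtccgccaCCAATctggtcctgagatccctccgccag
Tm7sf2: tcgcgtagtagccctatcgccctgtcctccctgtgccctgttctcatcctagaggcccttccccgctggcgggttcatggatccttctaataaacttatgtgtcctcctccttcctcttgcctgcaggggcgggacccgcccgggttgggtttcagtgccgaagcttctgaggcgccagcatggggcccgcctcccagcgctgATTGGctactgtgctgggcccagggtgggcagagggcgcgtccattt
Ebp: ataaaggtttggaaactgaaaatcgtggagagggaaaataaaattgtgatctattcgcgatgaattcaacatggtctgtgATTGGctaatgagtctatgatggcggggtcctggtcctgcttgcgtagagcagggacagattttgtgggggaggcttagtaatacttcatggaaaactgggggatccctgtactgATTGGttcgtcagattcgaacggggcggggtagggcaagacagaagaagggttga
Hmgcs1: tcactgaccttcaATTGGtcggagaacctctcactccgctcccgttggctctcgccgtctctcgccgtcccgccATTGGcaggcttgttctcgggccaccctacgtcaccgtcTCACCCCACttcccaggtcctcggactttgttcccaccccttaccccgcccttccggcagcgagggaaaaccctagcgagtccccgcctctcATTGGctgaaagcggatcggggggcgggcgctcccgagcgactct

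RefSeq promoters were matched for 25 of the 32 genes, Mvk included. The sterol element core TCACNCCA was found in 3 of them, Srebf2, Hmgcs1 and Msmo1, where it starts 162, 137 and 177 bases before the start of the gene, and in 4.2% of all 27025 genes with a promoter. TCACNCCAC, which contains that core and so overlaps it, was found in Hmgcs1 and in 1.22% of all genes. CCAAT was far more common: it was found in 19 of the 25, against 37.5% of all genes, and by role in 14 of 15 sterol steps, 3 of 4 regulators and 2 of 6 fatty acid steps. The E-box CACGTG was found in Dhcr7, Hsd17b7, Insig1, Sc5d and Scap, 5 of 25, against 6.86% of all genes. Ebp, which rose, and Lss, Cyp51 and Tm7sf2, which fell, have a CCAAT match in the stretch shown and no match to the core. A match of letters is a description of the window, not a bound site. Only exact matches to these letters were counted, so a stretch with no match may still hold a sterol element of another spelling. Matched promoters covered 15 of the 18 sterol steps, and Sqle, Fdft1 and Fdps were not all among them. The shares therefore leave out some of the largest falls.

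Among the early sterol steps, from acetyl-CoA to farnesyl diphosphate, 1 of 6 genes with a probe fell and none rose (14.7% of all features were called). Their median difference was -0.14. Bright probes read 5 of the 6. Among the bright features tested alone, where 43.4% were called, Hmgcs1, Idi1 and Fdps were called lower, and Pmvk and Mvd were not called. In the fit over all features the gene that fell was Fdps, which makes farnesyl diphosphate, the branch point to sterols and to prenylated proteins. Its log2 ratios were -0.40, -0.29 and -0.39 in ApoE KO aortas, against -0.07, 0.03 and 0.11 in WT aortas. The groups were well apart, with Fdps 1.3-fold lower in ApoE KO aortas (difference -0.38, SE 0.057, adjusted p = 0.0172).

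The steps before it had smaller differences. Hmgcs1, the enzyme that makes the HMG-CoA from which mevalonate is formed, had -0.10, -0.13 and -0.20 in ApoE KO aortas, against -0.02, 0.07 and -0.01 in WT aortas. The values did not overlap and just missed the threshold (difference -0.16, SE 0.036, adjusted p = 0.0555), and a second probe gave -0.07 (SE 0.041). Idi1, which interconverts the 5-carbon isoprenoid units, had -0.24, -0.42 and -0.27 in ApoE KO aortas, against 0.01, 0.07 and -0.10 in WT aortas. It too was apart without a call (difference -0.30, SE 0.069, adjusted p = 0.0559). Among the bright features alone, Hmgcs1 and Idi1 passed the threshold, with adjusted p values of 0.025 and 0.00765.

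Pmvk, a kinase of the mevalonate route, had -0.08, -0.06 and -0.18 in ApoE KO aortas, against 0.03, 0.00 and 0.03 in WT aortas, again without overlap (difference -0.12, SE 0.036, adjusted p = 0.0961). Mvd, the decarboxylase that follows it, leaned the other way, with 0.11, 0.20 and 0.15 in ApoE KO aortas and -0.05, -0.02 and 0.12 in WT aortas. One WT value lay within the knockout range (difference 0.13, SE 0.054, adjusted p = 0.213). Acat2, the cytosolic thiolase at the head of the pathway, had 0.00, -0.05 and 0.00 in ApoE KO aortas and 0.05, 0.05 and -0.05 in WT aortas. These overlapped (difference -0.03, 0.71 of 1 step, SE 0.034, adjusted p = 0.519).

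**Figure D2:**
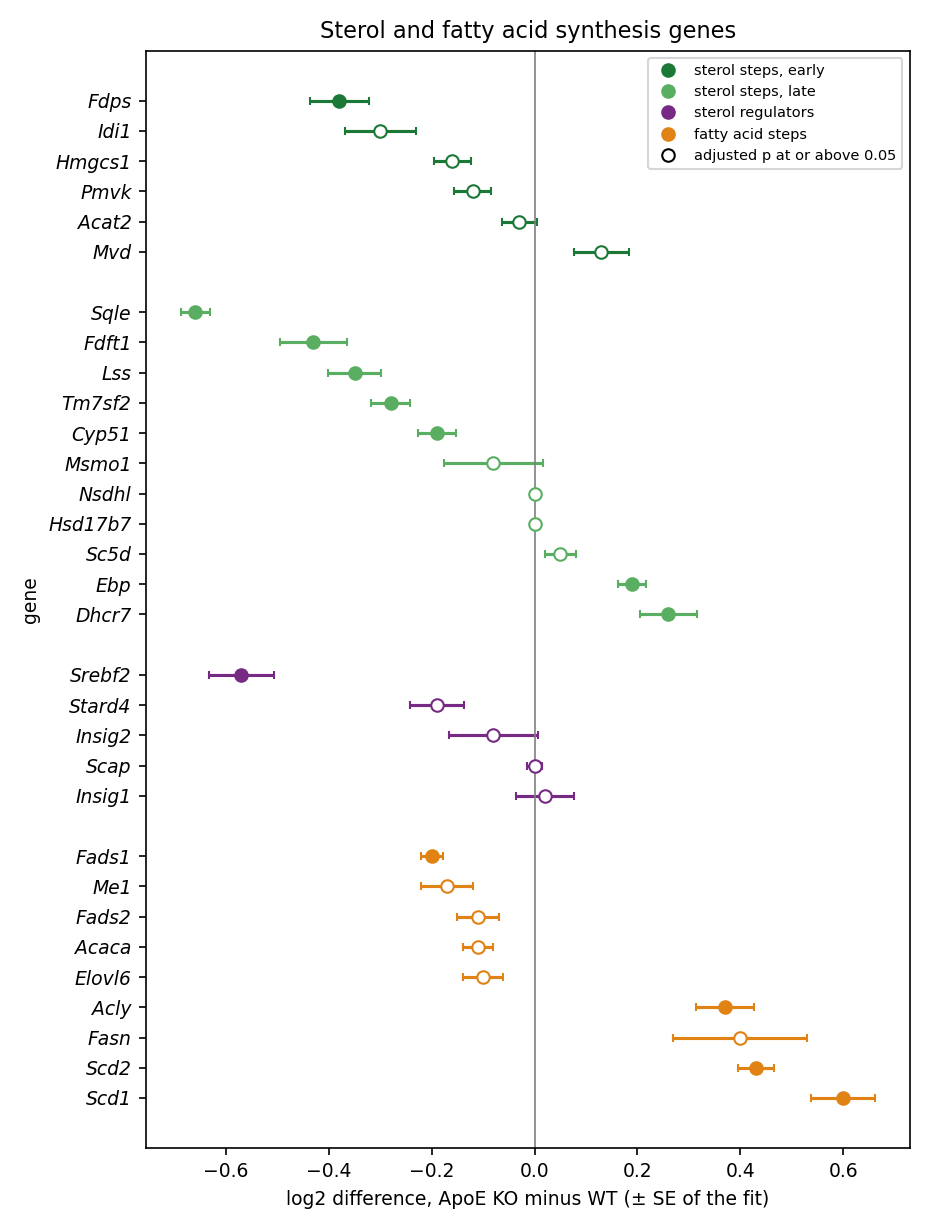
Log2 difference, ApoE KO minus WT, for the 31 genes with a probe, ordered by size within each role. Points are estimates of the limma fit over 3 ApoE KO and 3 WT arrays, bars are its SE, and open points have an adjusted p at or above 0.05. Sqle lies lowest at -0.66 and Scd1 highest at 0.60.

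Among the 11 late sterol steps, from farnesyl diphosphate to cholesterol, 5 fell and 2 rose, with a median difference of -0.08. For comparison, 14.7% of all features were called. Bright probes read 7 of the 11. Among the bright features tested alone, where 43.4% were called, Fdft1, Sqle and Lss fell and Ebp and Dhcr7 rose. Msmo1 and Sc5d were not called there. Sqle, squalene epoxidase, which is a rate-controlling oxygenase of the pathway, had -0.65, -0.64 and -0.65 in ApoE KO aortas, against -0.03, 0.07 and -0.01 in WT aortas. The knockout values were almost the same on all 3 arrays and far from the WT values, and Sqle was 1.58-fold lower (difference -0.66, SE 0.028, adjusted p = 0.00074). It had the largest fall of the 31 genes.

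Fdft1, squalene synthase, commits farnesyl diphosphate to sterols. It had -0.46, -0.38 and -0.53 in ApoE KO aortas, against -0.13, -0.01 and 0.05 in WT aortas, which makes it 1.34-fold lower (difference -0.43, SE 0.066, adjusted p = 0.0194). Lss closes the squalene epoxide into lanosterol. Its values of -0.26, -0.42 and -0.32 in ApoE KO aortas lay below the 0.00, 0.07 and -0.03 of WT aortas (difference -0.35, SE 0.051, adjusted p = 0.0167, 1.27-fold lower). Tm7sf2, a sterol C14 reductase, had -0.29, -0.29 and -0.36 in ApoE KO aortas, against 0.03, -0.09 and -0.03 in WT aortas. Again no values overlapped, and it was 1.22-fold lower (difference -0.28, 8.1 steps, SE 0.038, adjusted p = 0.0124).

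Cyp51, the lanosterol demethylase, had -0.24, -0.22 and -0.12 in ApoE KO aortas and 0.00 on all 3 WT arrays. Its probe was dim, and the difference of -0.19 (SE 0.037, adjusted p = 0.0348) equals 1.5 steps of the rounded intensity, so a WT spread well under 1 step would not show. The call was also lost when each array was centred on its bright features (adjusted p = 0.0678). Nsdhl and Hsd17b7, which act in the removal of the C4 methyl groups, also had dim probes and showed a ratio of 0.00 on each of the 6 arrays, where 1 step would be 0.18 and 0.14 on the log2 scale. A change well below that size was not detectable for them. Msmo1, the C4 methyl oxidase, had -0.05, -0.17 and -0.06 in ApoE KO aortas and 0.08, 0.08 and -0.21 in WT aortas. These overlapped because of WT replicate 3 (difference -0.08, SE 0.096, adjusted p = 0.643).

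The genes that rose were Ebp and Dhcr7, and neither was called after quantile normalization (adjusted p = 0.128 and 0.336). Ebp, the sterol isomerase, had 0.23, 0.21 and 0.17 in ApoE KO aortas, against -0.01, -0.01 and 0.06 in WT aortas. Every knockout value was above every WT value, by a small margin in fold terms (difference 0.19, SE 0.027, adjusted p = 0.0158, 1.14-fold higher). Dhcr7, which reduces the last double bond of the ring on the way to cholesterol and so draws on the precursor of vitamin D, had 0.32, 0.31 and 0.22 in ApoE KO aortas, against 0.00, -0.05 and 0.12 in WT aortas. It was 1.2-fold higher (difference 0.26, SE 0.055, adjusted p = 0.0444), and the call was lost with a trended, robust variance (adjusted p = 0.054). Sc5d, the desaturase between these steps, overlapped between groups, with 0.05, 0.08 and 0.04 in ApoE KO aortas and -0.03, 0.07 and -0.01 in WT aortas (difference 0.05, SE 0.03, adjusted p = 0.392).

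Of the 9 fatty acid steps, 3 rose and 1 fell, where 14.7% of all features were called. Among the bright features tested alone, where 43.4% were called, 2 of 5 fatty acid steps rose and none fell. Acly, Fasn, Scd2 and Scd1 had differences between 0.37 and 0.60, and Fads1, Me1, Fads2 and Acaca had differences between -0.20 and -0.11. Elovl6 had probes on both sides of 0, and the median of the 9 turns on it: -0.10 with its brighter probe, 0.13 with the mean of all probes of each gene, and 0.00 after quantile normalization. The groups did not overlap for any of the 9, of which 5 had bright probes, against 29.3% of all features and 59.2% of the bright ones. Scd1, a stearoyl-CoA desaturase that makes monounsaturated fatty acids and a known target of SREBP-1 and liver X receptors, had 0.53, 0.53 and 0.42 in ApoE KO aortas, against 0.00, -0.15 and -0.17 in WT aortas. It was 1.52-fold higher (difference 0.60, SE 0.062, adjusted p = 0.00615), from a dim probe on which the difference spans 4.8 steps of the rounded intensity. Scd2, the desaturase of the same family common outside the liver, had 0.47, 0.43 and 0.41 in ApoE KO aortas, against 0.01, 0.05 and -0.06 in WT aortas. Its probe was bright and its knockout arrays close together (difference 0.43, SE 0.035, adjusted p = 0.00321, 1.35-fold higher). Whether either probe also reads the transcript of the other desaturase was not tested.

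Acly, which splits citrate to give the acetyl-CoA that both routes use, rose as well. It had 0.37, 0.41 and 0.27 in ApoE KO aortas, against 0.01, 0.03 and -0.11 in WT aortas (difference 0.37, SE 0.057, adjusted p = 0.0185, 1.3-fold higher). Fasn, fatty acid synthase, had 0.23, 0.47 and 0.18 in ApoE KO aortas, against 0.00, -0.32 and 0.00 in WT aortas. The groups were apart, yet 1 array in each stood off from the others and Fasn was not called (difference 0.40, 9 steps, SE 0.13, adjusted p = 0.133).

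Fads1, the delta-5 desaturase of polyunsaturated fatty acids, was the fatty acid gene that fell. It had -0.22 on all 3 ApoE KO arrays, against 0.00, -0.07 and 0.00 in WT aortas (difference -0.20, SE 0.021, adjusted p = 0.00685, 1.15-fold lower). The difference spans 5.1 steps of the rounded intensity, and 1 step is 0.035 on the log2 scale, more than the SE. Fads2, the delta-6 desaturase, had -0.12, -0.07 and -0.16 in ApoE KO aortas, against 0.07, -0.03 and -0.04 in WT aortas. It was not called with this probe (difference -0.11, SE 0.04, adjusted p = 0.154) nor with its dim second one, in a fit of every probe as its own feature (difference -0.21, 1.8 steps, SE 0.048, adjusted p = 0.0548). Both probes of Fads2 had negative differences, and their mean was called lower (difference -0.16, SE 0.026, adjusted p = 0.0215). Acaca, the acetyl-CoA carboxylase that makes malonyl-CoA, had -0.10, -0.07 and -0.16 in ApoE KO aortas, against -0.02, -0.02 and 0.04 in WT aortas (difference -0.11, SE 0.03, adjusted p = 0.0886), and its other probes, all dim, gave -0.25, -0.19 and 0.00 (1.3, 0.81 and 0 steps), none of them called. Me1, malic enzyme, a source of NADPH for synthesis, had -0.26, -0.17 and -0.23 in ApoE KO aortas, against -0.03, 0.03 and -0.13 in WT aortas. Me1 was not called either (difference -0.17, 4.8 steps, SE 0.051, adjusted p = 0.0998).

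Elovl6, which lengthens 16-carbon fatty acids to 18 carbons, could not be given a direction. Its brighter probe had -0.14, -0.05 and -0.11 in ApoE KO aortas, against -0.04, -0.02 and 0.06 in WT aortas (difference -0.10, SE 0.039, adjusted p = 0.212). Its other probe had 0.28, 0.38 and 0.17 in ApoE KO aortas, against -0.04, -0.25 and 0.04 in WT aortas (difference 0.36, SE 0.098, adjusted p = 0.089 in the fit of every probe). Both probes kept the groups apart, in opposite directions, and neither was called.

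**Figure D3:**
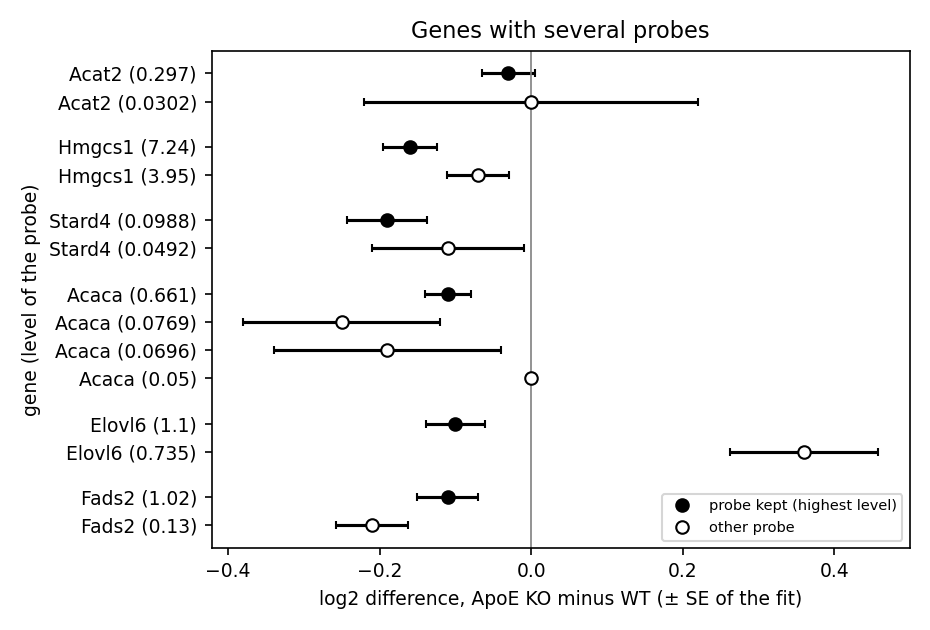
Log2 difference, ApoE KO minus WT, with its SE, for each probe of the 6 genes with more than 1 probe, with the level of the probe in brackets. Filled points are the probes used for the gene and open points the others. The probes of Elovl6 lie on opposite sides of 0, at -0.10 and 0.36, and those of Hmgcs1 and Fads2 lie on the same side.

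Other genes of the same routes gave a mixed picture. Of 17 measured genes of the isoprenoid branch, of SREBP processing and of other sterol genes, 3 rose and 4 fell, with a median difference of 0.00. In the same fit 14.7% of all features were called, and 43.4% of the bright ones when those were tested alone. Bright probes read 12 of the 17, among them all the genes called. Soat1, which stores cholesterol as esters and is abundant in foam cells, rose most, with 1.45, 1.38 and 1.31 in ApoE KO aortas, against 0.03, -0.03 and -0.13 in WT aortas (difference 1.42, SE 0.056, adjusted p = 0.00071). Erlin1, a membrane protein of the endoplasmic reticulum that takes part in protein degradation there, rose (difference 0.35, SE 0.022, adjusted p = 0.00164), as did Srebf1, which encodes SREBP-1, the factor of fatty acid synthesis. Srebf1 had 0.22, 0.32 and 0.15 in ApoE KO aortas, against 0.00, -0.02 and -0.03 in WT aortas (difference 0.24, SE 0.048, adjusted p = 0.0385), so the genes of the 2 SREBP factors were called in opposite directions. The Srebf1 call was lost without ApoE KO replicate 1 or any 1 WT replicate (adjusted p up to 0.122) and after quantile normalization (0.0692), whereas Soat1 kept its call under each of these. Mbtps1, the protease that makes the first cut in SREBP, fell (difference -0.17, SE 0.013, adjusted p = 0.00263), and so did Acat1, the mitochondrial thiolase (-0.25, SE 0.048, adjusted p = 0.0333), Fntb, a subunit of farnesyltransferase (-0.17, adjusted p = 0.0407), and Dhdds, of dolichol synthesis (-0.06, adjusted p = 0.0334). The calls of Acat1 and Fntb were lost without any 1 of the arrays (highest adjusted p 0.103 for Acat1 and 0.135 for Fntb). Dhdds kept its call when ApoE KO replicate 3 was left out and lost it without any other array (highest 0.112).

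Of 26 further genes of fatty acid activation, elongation and use, 10 of them with bright probes, 5 rose and 2 fell, with a median difference of 0.01. For comparison, 14.7% of all features were called, and 43.4% of the bright ones when tested alone. Those that rose were Pgd, of the pentose phosphate route that supplies NADPH (difference 0.63, SE 0.038, adjusted p = 0.00145), the acyl-CoA synthetases Acsl5 (0.57, adjusted p = 0.00148) and Acsl4 (0.46, adjusted p = 0.00932), Hsd17b12, a reductase of the elongation cycle (0.39, adjusted p = 0.00717), and Fads3 (0.13, adjusted p = 0.0385). The synthetase Acsl3 fell (-0.22, adjusted p = 0.00714, 5.4 steps), and so did Acacb, the carboxylase at the mitochondrial surface, from a dim probe (-0.14, SE 0.008, adjusted p = 0.00136, 0.89 of 1 step). Fads3 lost its call without any 1 of the arrays (up to 0.121), and after quantile normalization Acacb and Soat1 were the 2 of these 14 called genes outside the list that kept theirs.

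**Figure D4:**
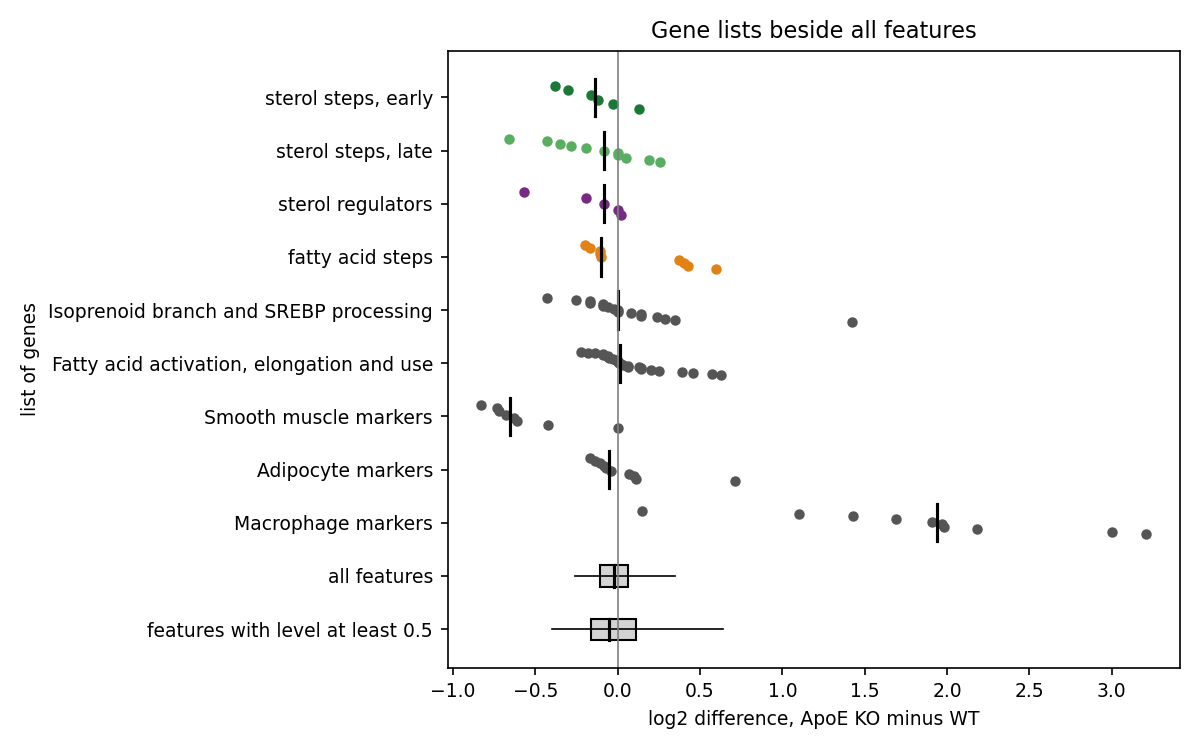
Log2 difference, ApoE KO minus WT, of each gene (points) in the groups of synthesis genes, the other pathway genes and the marker lists, with the median of each list as a line. Boxes for all features and for those with a level of at least 0.5 span the quartiles, and their whiskers the 5th to 95th percentiles. The macrophage list has its median at 1.94 and the smooth muscle list at -0.65, while the sterol steps and regulators have medians between -0.14 and -0.08. The fatty acid steps have -0.10, against 0.13 with the mean of all probes and 0.00 after quantile normalization.

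Fat around the vessel, a tissue rich in these enzymes, was looked at through 10 adipocyte markers. None rose and Lep fell (-0.14, from a dim probe with a ratio of 0.00 on all 3 WT arrays, where the difference is 0.86 of 1 step), with a median of -0.05, and the summed level was 49.9 to 54.2 in ApoE KO aortas and 43.3 to 54.6 in WT aortas. Cidea, Cfd and Pck1, the brightest, differed by -0.08, 0.71 and -0.17 without a call. Only 4 of the 10 adipocyte markers had a level of at least 0.5. Of 7 Schwann cell markers Sox10 fell, with a summed level of 2.41 to 2.47 in ApoE KO aortas and 2.51 to 2.96 in WT aortas. Vwf rose among 6 endothelial markers, and none of 6 cardiac, 4 skeletal muscle or 3 hepatocyte markers was called.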

How the data were processed

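Aorta RNA of 3 ApoE KO and 3 WT samples was measured on 2-colour Agilent arrays and grouped by the Cy5 channel's genotype label. Total RNA (100 ng) was amplified in repeated rounds, per the labels' protocols, a step that can compress differences. The submitters' processing notes name Agilent Feature Extraction 8.5.1.1. The authors deposited log10 ratios of the aorta's RNA to the reference, here turned into log2, and a table of intensity values whose scaling is not stated. The reference intensity of the 3 arrays headed C57BL6 was used, and 15 of that table's 18 columns per sample were not. For 99.6% of 1384 WT ratios away from 0, on probes with equal reference intensity (0.05 to 0.5) on all 3 arrays, ratio times reference fell within 0.02 of a whole step of 0.01, against 0.1% with the ratio turned round. That settles scale and direction for WT, and for ApoE KO the direction rests on the dyes in the labels. Whether ratios had been centred is unknown: the median of bright features was -0.051, -0.046 and -0.051 on the ApoE KO arrays and 0, 0 and -0.014 on the WT arrays. Ratios of exactly 0 made up 36.2 to 38.5% of the ApoE KO arrays and 48 to 58.9% of the WT arrays. The lowest correlation between arrays over all probes was -0.173.

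Probes with a missing value were dropped, and the brightest probe stood for its gene (35027 features). Its level was the mean reference intensity multiplied by the average of 1 and the mean ratio. The test was limma 3.58.1 (R 4.3.3, lmFit and eBayes, two-sided, no trend, weights or block) with Benjamini-Hochberg adjustment at 0.05. It was also run on simulated arrays with equal noise in both groups. That run cannot show how the test behaves on groups of unlike spread. Genes, groups and lists (other pathway genes and markers) were chosen with earlier results of these data known. Named are every gene of the list, Apoe, in the other pathway lists the 3 with the lowest p and any behind a count of 5 or fewer, and the 3 brightest smooth muscle, macrophage and adipocyte markers. Lep, Sox10, Vwf, Myocd and Des were chosen after their values were seen, and the brightest markers of the other types are given by count. Promoters came from RefSeq (GRCm38.p6) and were searched on both strands.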

Additional observations from a re-analysis of the deposited data

How the results depend on the processing

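The fit called 5158 features, 2357 higher and 2801 lower. Centring each array on its bright features gave 4978, with 3205 higher and 1773 lower, and called 5 synthesis genes higher and 7 lower. Quantile normalization called 1651 features, with 2 synthesis genes higher and 1 lower. Leaving out 1 array gave 3516 to 4901 features, 2 to 5 synthesis genes higher and 4 to 7 lower. The cause was not tested, apart from the smaller number of arrays when 1 was left out. Level limits of 0.5 and 0.1 gave 3924 and 6479 features, the mean of all probes 4980, a trended robust variance 4696 and array weights 6884, with 4 to 6 synthesis genes higher and 7 to 12 lower. Every probe as its own feature, chosen after seeing the data, gave 5537.

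The replicate numbers were not shown to pair the arrays, since same-numbered arrays deviated together with r of 0.078, -0.469 and -0.145. With the replicate number as a block, 2582 features were called, with 3 synthesis genes higher and 1 lower.

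Directions turned for genes near 0. With centring, Acat2 was at 0.010 and Scap at 0.041. After quantile normalization Scap was at 0.068 and Elovl6 at 0.003, and the mean of its probes put Elovl6 at 0.131. Without 1 array Scap ranged between -0.014 and 0.007 and Insig1 between -0.032 and 0.067. No other gene of the list changed sign, apart from values of exactly 0. Rounding limits what dim probes can show.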
